A study of Mus musculus with 12 samples.

Results

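The LIM homeobox genes of the Lhx and Lmx1 groups were followed in a map of trimethylation of lysine 27 of histone H3 (H3K27me3) in the iMEF line of immortalized fibroblasts from mouse embryos. The 10 genes Lhx1, Lhx2, Lhx3, Lhx4, Lhx5, Lhx6, Lhx8, Lhx9, Lmx1a and Lmx1b were taken by name, out of 21755 protein-coding genes annotated on chromosomes 1 to 19 and X. Each was described by the H3K27me3 sites that overlap its gene body extended by 20 kb on both sides, called its window below. Of the 101389 sites listed for the experiment, 85 overlapped a window. The map came from chromatin immunoprecipitation followed by sequencing (ChIP-seq), with 8 H3K27me3 libraries and 4 input libraries of chromatin without precipitation. Cells were untreated, which the sample titles call WT, or treated with dTAG for 16 h, 24 h or 48 h, with 2 H3K27me3 libraries each. Of the 4 inputs 2 were untreated and 2 had received dTAG for 48 h.

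All groups, the untreated cells included, shared the same genetic changes. The cells were iMEF cells that carried Ash2l fl/fl and the recombinase Cre-ER, in which exon 4 of the endogenous Ash2l had been deleted and a lentiviral construct supplied human ASH2L fused at its N-terminus to FKBP12F36V, a form of FKBP12 that binds dTAG. ASH2L is a core subunit of the COMPASS/KMT2 complexes, which methylate lysine 4 of histone H3, and dTAG directs the fusion protein to degradation. The engineered lines of the study were single-cell clones, and the paper names NG3 as the clone used for its histone mark ChIP-seq. The sites therefore describe clonal fibroblasts and not a population of primary cells. The list of sites was made over all samples and gives a chromosome, a start and an end, with no value for any library. From this list the effect of dTAG on these genes could not be tested, and the sites that the study lists as changed over time and its RNA measurements were not analysed here, so that the cell type was not checked against marker expression. No replicate error exists for the values below, and the depth behind a site is unknown. All values are descriptions of 1 list, and counts over the 10 genes are set beside the share of all protein-coding genes where it was computed.

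LIM homeodomain proteins are transcription factors that specify cell types during development, above all in the nervous system, the pituitary, the limbs, the kidney and the gonads. They bind DNA through the homeodomain, while their LIM domains bind the cofactors LDB1 and LDB2, for which LIM-only (LMO) proteins compete. H3K27me3 is placed by Polycomb repressive complex 2 and is known to form broad domains over genes of developmental transcription factors in cells that do not use them.

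The promoters of 5 genes are shown first because they carry the contrasts described below, namely a pair of paralogs with and without a site (Lhx2 and Lhx9), a pair that differs in how far the site extends into the gene (Lhx6 and Lhx8), and a promoter that is cut by the edge of a site (Lhx3). The sequences are from RefSeq on GRCm38.p6, run 5′ to 3′ on the strand of the gene, and comprise 250 bases before and 50 bases after a RefSeq start. Capitals mark CpG dinucleotides (the letters CG, which read the same on both strands). Lhx2 is at chr2:38339031-38339330 on the plus strand, Lhx9 at chr1:138842395-138842694, Lhx6 at chr2:36105359-36105658, Lhx8 at chr3:154330511-154330810 and Lhx3 at chr2:26208200-26208499, the last 4 on the minus strand. For Lhx9 the RefSeq start lies inside the GENCODE gene record, which begins farther upstream.
Lhx2: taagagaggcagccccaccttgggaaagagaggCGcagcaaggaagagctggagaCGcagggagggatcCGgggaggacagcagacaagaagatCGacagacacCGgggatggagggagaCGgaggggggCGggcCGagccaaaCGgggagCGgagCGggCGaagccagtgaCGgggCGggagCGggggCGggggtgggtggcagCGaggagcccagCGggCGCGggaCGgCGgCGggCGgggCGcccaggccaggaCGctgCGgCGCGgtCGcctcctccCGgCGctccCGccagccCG
Lhx9: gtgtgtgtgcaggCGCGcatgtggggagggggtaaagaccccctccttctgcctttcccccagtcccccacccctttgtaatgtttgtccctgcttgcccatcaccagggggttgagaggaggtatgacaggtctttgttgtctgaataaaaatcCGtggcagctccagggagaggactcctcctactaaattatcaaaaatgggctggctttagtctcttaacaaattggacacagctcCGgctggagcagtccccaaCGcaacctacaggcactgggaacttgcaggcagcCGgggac
Lhx6: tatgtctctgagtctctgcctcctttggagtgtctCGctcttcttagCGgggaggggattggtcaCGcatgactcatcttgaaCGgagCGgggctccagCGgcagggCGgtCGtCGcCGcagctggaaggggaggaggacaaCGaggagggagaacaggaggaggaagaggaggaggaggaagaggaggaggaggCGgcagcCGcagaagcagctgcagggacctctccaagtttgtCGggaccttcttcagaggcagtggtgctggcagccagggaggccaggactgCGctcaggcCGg
Lhx8: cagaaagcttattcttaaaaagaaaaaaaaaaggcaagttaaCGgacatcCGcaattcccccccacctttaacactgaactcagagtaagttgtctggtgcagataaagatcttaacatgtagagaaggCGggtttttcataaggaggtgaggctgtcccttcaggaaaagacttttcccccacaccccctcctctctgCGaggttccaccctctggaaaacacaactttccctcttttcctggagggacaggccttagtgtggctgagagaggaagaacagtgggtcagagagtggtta
Lhx3: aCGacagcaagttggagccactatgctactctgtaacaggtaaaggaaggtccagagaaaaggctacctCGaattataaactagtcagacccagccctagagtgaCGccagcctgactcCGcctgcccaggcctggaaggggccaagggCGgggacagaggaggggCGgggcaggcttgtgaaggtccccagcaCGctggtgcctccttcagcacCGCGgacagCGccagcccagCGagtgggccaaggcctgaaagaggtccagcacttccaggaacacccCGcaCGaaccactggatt

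The number of CpG pairs differed widely among these promoters. The Lhx2 promoter held 34 pairs, a number reached by 7.78% of the 32619 RefSeq promoters of the same length, and was wholly inside a site. The Lhx9 promoter held 6 pairs, which 56.8% of promoters reached, and had no covered base. It is an internal promoter, and the CpG pairs at the GENCODE starts of Lhx9 farther upstream were not analysed here. The Lhx6 promoter held 16 pairs (33.2% of promoters) and the Lhx8 promoter 4 pairs (69.0% of promoters), and both were wholly inside a site.

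Promoters were found for 9 of the 10 genes and numbered 13. Their median was 17 CpG pairs, against 7 over all promoters, and 11 of the 13 were wholly inside a site, against a background of 15.5% of all promoters. Among promoters with 17 CpG pairs or more, a cutoff taken from the median of the 13, 7 of 7 from the Lhx and Lmx1 genes were wholly covered. These included both promoters of Lhx2. The share was 15.0% of the 10317 such promoters of all genes. The background share was thus about as low among CpG-rich promoters as among all. Both promoters that were not wholly covered are printed above, that of Lhx9 and the upstream promoter of Lhx3. In the latter the site covered 33.3% of the bases, from base 201 of the printed sequence to its end. The second RefSeq promoter of Lhx3 (chr2:26206526-26206825) was wholly covered and held 28 CpG pairs, against 13 in the printed one.

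Sites covered at least 1 annotated transcription start site (TSS) of 9 of the 10 genes, the exception being Lhx9, against 21.4% of protein-coding genes. For 8 genes every annotated TSS was covered, against 11.9% of protein-coding genes. Counted as TSSs, 33 of the 42 of the Lhx and Lmx1 genes were covered (78.6%), against 13.2% of the TSSs of protein-coding genes. The 9 uncovered TSSs were the 7 of Lhx9 and 2 of the 7 of Lhx6. A site lay somewhere in the window of the same 9 genes, against 61.5% of protein-coding genes, so that the presence of a site near a gene is common and sets these genes apart less than a site over the TSS.

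The extent of the sites separated these genes from the background more than their presence. The median covered share of the window was 54.3% over the 10 genes, with a range from 0 to 91.8%, against 1.88% over all protein-coding genes. At least 50% of the window was covered in 7 of the 10 genes, against 6.47% of protein-coding genes. Lhx4 (50.2%) and Lhx8 (51.8%) lay just above this limit, and the count was 5 with flanks of 50 kb or with only sites of at least 500 bp. The share of protein-coding genes was not computed in those 2 settings. The gene body alone was covered by at least 95% in 5 genes (Lhx1, Lhx2, Lhx3, Lhx5 and Lmx1b), against 3.45% of protein-coding genes. A site of at least 10 kb lay in 8 windows, all but those of Lhx6 and Lhx9, against 11.9% of protein-coding genes.

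In descending order the covered share of the window was 91.8% in Lmx1b, 91.4% in Lhx5, 91.1% in Lhx2, 66.2% in Lhx1, 56.8% in Lhx3, 51.8% in Lhx8, 50.2% in Lhx4, 24.3% in Lmx1a, 19.1% in Lhx6 and 0 in Lhx9. The first 7 were above the 90th percentile of protein-coding genes, which was 37.9%, and Lmx1a and Lhx6 were above the 75th, which was 14.0%. Without replicate values it cannot be said which neighbours in this order differ. The first 3 lie within 1 percentage point of each other.

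**Figure D1:**
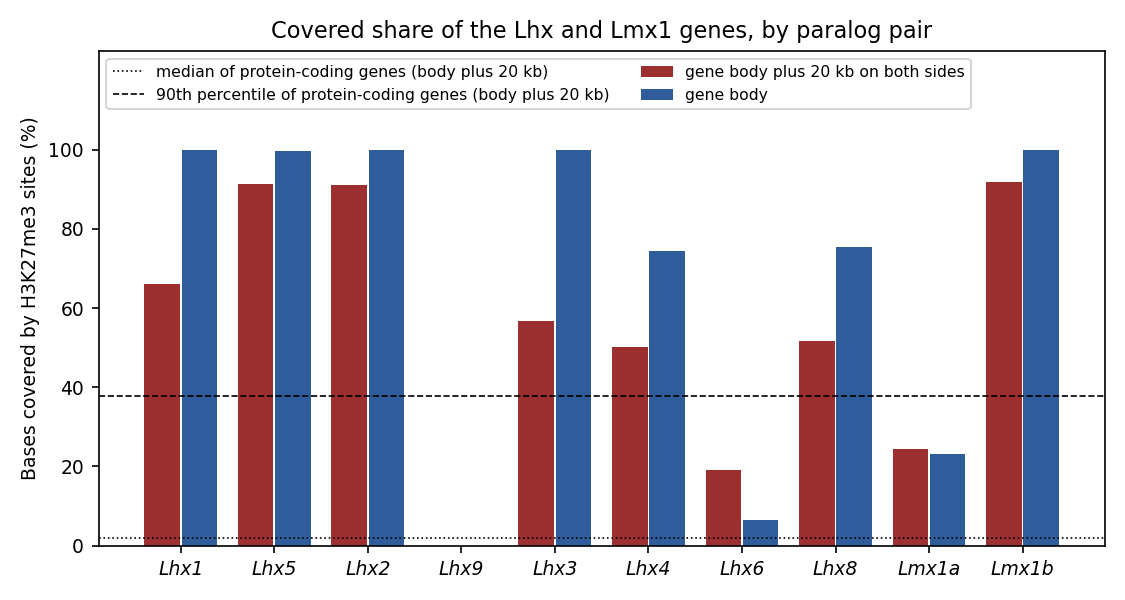
Share of bases covered by H3K27me3 sites (y axis, %) for each gene (x axis, ordered by paralog pair), in the gene body plus 20 kb on both sides (red) and in the gene body alone (blue). The dotted and dashed lines are the median (1.88%) and 90th percentile (37.9%) of protein-coding genes for the red measure; 7 red bars stand above the dashed line and Lhx9 has no bar.

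The widest site of a gene, though not every wide site, lay over a start. Sites of at least 10 kb that covered no TSS lay past the gene at Lhx3 (14920 bp) and Lmx1b (12016 bp). In Lhx1, Lhx2, Lhx3, Lhx5 and Lmx1b the widest site also held at least 95% of the gene body. In these genes a place over the start cannot be told apart from cover of the whole gene. In all 9 genes with sites the widest site covered an annotated TSS, against 20.7% of the 13383 protein-coding genes with a site in their window. In 8 of the 9 it covered the 5′-most TSS, Lhx4 being the exception, against 16.8%. Among genes whose widest site was at least 10 kb it covered a TSS in 8 of 8 Lhx and Lmx1 genes and in 37.6% of all 2581 such genes. The site over the 5′-most TSS reached farther downstream than upstream in 6 genes (Lhx2, Lhx3, Lhx4, Lhx8, Lmx1a and Lmx1b) and farther upstream in 3 (Lhx1, Lhx5 and Lhx6). The reach was farther downstream in 64.1% of the 3937 protein-coding genes with such a site, so that 6 of 9 is near the background. In the first 1 kb downstream of the 5′-most TSS a mean of 90% of bases was covered over the 10 genes, that is, all of it in 9 genes and none in Lhx9, against 18.5% over protein-coding genes. In the outermost upstream bin, 19 to 20 kb before the TSS, the mean was 40.1% against 12.3%, and in the outermost downstream bin 50.0% against 10.0%. The profile of the Lhx and Lmx1 genes thus lay above the background over the whole 40 kb and not at the TSS alone, while individual genes dropped to 0 at different distances.

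**Figure D2:**
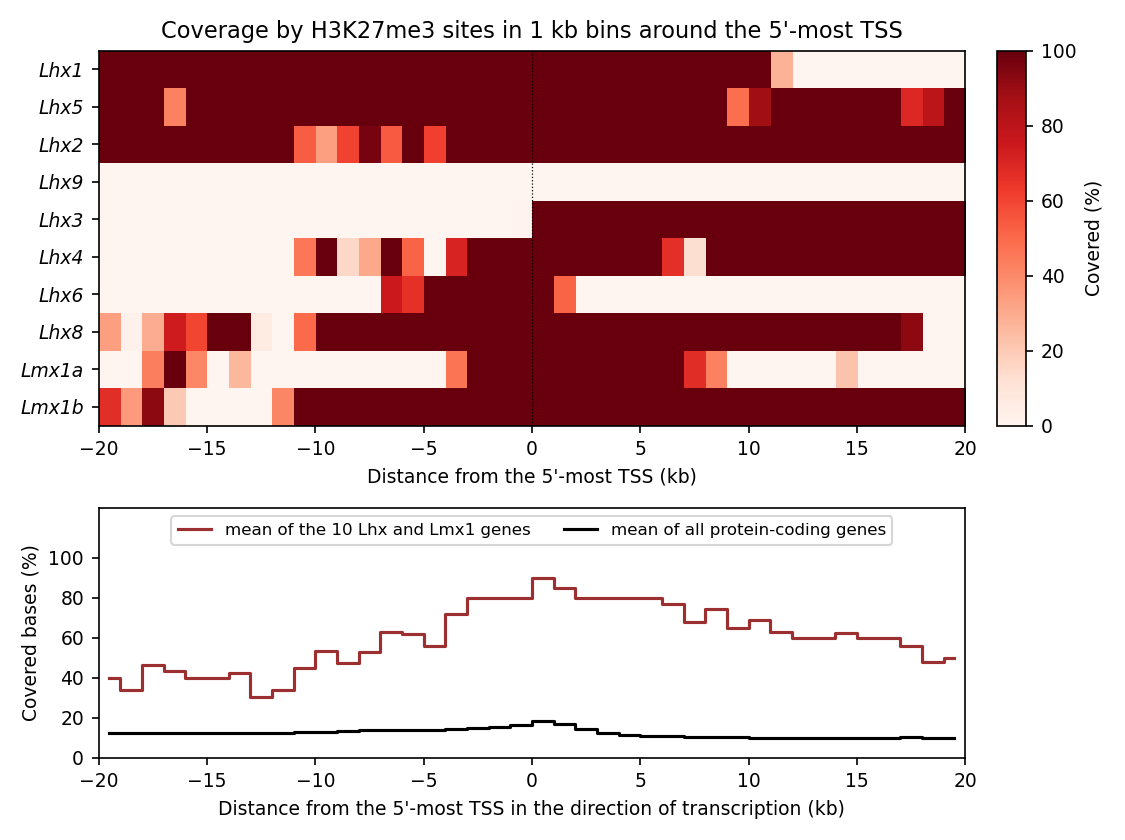
Covered bases (%) in 1 kb bins by distance from the 5′-most TSS (x axis, kb, in the direction of transcription), for each gene (upper panel, colour scale from 0 to 100%) and as the mean of the 10 genes (lower panel, red) and of all protein-coding genes (black). Every gene but Lhx9 is dark in the first bin after the TSS, the red line peaks there at 90% and the black line at 18.5%, and Lhx3 is pale before the TSS and dark after it.

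Lhx1 and Lhx5 are close paralogs, of which Lhx1 acts in the head organizer and the kidney and Lhx5 in the forebrain. Both had their bodies covered, by 100% in Lhx1 and 99.6% in Lhx5. Lhx1 (chr11:84518284-84525535, minus strand) lay under a single site of 44221 bp at chr11:84514262-84558482. This site extended 32947 bp upstream and 11273 bp downstream of the 5′-most TSS and covered all 4 TSSs, the whole upstream flank and 20.1% of the downstream flank. Lhx5 (chr5:120431699-120441223, plus strand) had 5 sites, of which that over its only TSS was 25788 bp wide and ended 40 bp before the end of the gene. The other 4 sites of Lhx5 were 4507 to 7681 bp wide, 1 of them upstream and 3 downstream of the gene. All 5 sites together covered 97.1% of the upstream and 81.8% of the downstream flank.

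The difference between both genes lay outside their bodies. The covered share of the window was 25.2 percentage points lower in Lhx1 than in Lhx5, while in the gene body it was 0.420 percentage points higher. The domain of Lhx1 ended 739 bp short of the 5′ end of Aatf, the next gene downstream, which had no covered base. When sites less than 3 kb apart were joined, the domain over the Lhx1 TSS became 275017 bp wide and that of Lhx5 90920 bp wide. Lhx1 was therefore the narrower by covered share of the window and the wider by the extent of the joined domain, most of which lies upstream of its window.

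Lhx2, a factor of forebrain, eye and hair follicle development, and Lhx9, which is required for formation of the gonads, gave the largest contrast of the 5 pairs. The window of Lhx2 (chr2:38339281-38369733, plus strand) was covered by 91.1% and its body by 100%. All 7 TSSs were inside a site of 41304 bp, from 4524 bp before to 36779 bp after the 5′-most TSS, which ran past the end of the gene. The other 9 sites of Lhx2 were 339 to 9952 bp wide, and the gaps between its sites were 40 to 1591 bp long. In the same cells Lhx9 (chr1:138825186-138848577, minus strand) had no site in its window and none of its 7 TSSs was covered.

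The nearest site to Lhx9 lay 39041 bp away, at chr1:138785713-138786145, and 28.7% of protein-coding genes had their nearest site at least as far. Within 500 kb on both sides of the window 0.238% of bases were covered, against a median of 8.65% around protein-coding genes. A lower value was found around 8.37% of protein-coding genes. The window of Lhx9 held 13.9 CpG pairs per kb, the second lowest value after the 11.3 of Lmx1a, and the other 8 windows held 14.2 to 20.6. The part of CpG density in the absence of a site was not tested. Absence from the list says that no site was called there, and the read coverage behind it is unknown.

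Lhx3 and Lhx4 cooperate in pituitary development and in motor neurons. Lhx3 (chr2:26200212-26208289, minus strand) was covered over 100% of its body by a site of 26459 bp at chr2:26181841-26208299. On the upstream side this site stopped 10 bp before the 5′-most TSS, so that 0.0500% of the upstream flank was covered, against 96.2% of the downstream flank. The gene next upstream is Qsox2, a sulfhydryl oxidase gene on the same strand, whose end lies 348 bp from the Lhx3 start and which had no covered base and no covered TSS. The boundary of the Lhx3 domain thus fell in the short interval between a covered and an uncovered gene, within the printed promoter. A further site of 14920 bp followed downstream after a gap of 766 bp.

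Lhx4 (chr1:155698031-155751684, minus strand) differed from Lhx3 in that its body was covered in part, by 74.4%. A site of 10372 bp covered the 5′-most TSS and a site of 33244 bp, at chr1:155710567-155743810, the TSS of the transcript Lhx4-201. The last 12536 bp of the gene were uncovered, as was the whole downstream flank. Most exonic bases lie in that last stretch, and 9.55% of the exonic and 82.1% of the intronic bases of Lhx4 were covered, whereas in Lhx3 both were covered by 100%. Lhx3 was higher by 6.59 percentage points over the window and by 25.6 percentage points in the gene body. The difference over the window depended on its limits, with 26.9 percentage points at flanks of 50 kb and 0.955 when the body of Lhx4 was that of transcripts tagged as basic in GENCODE.

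**Figure D3:**
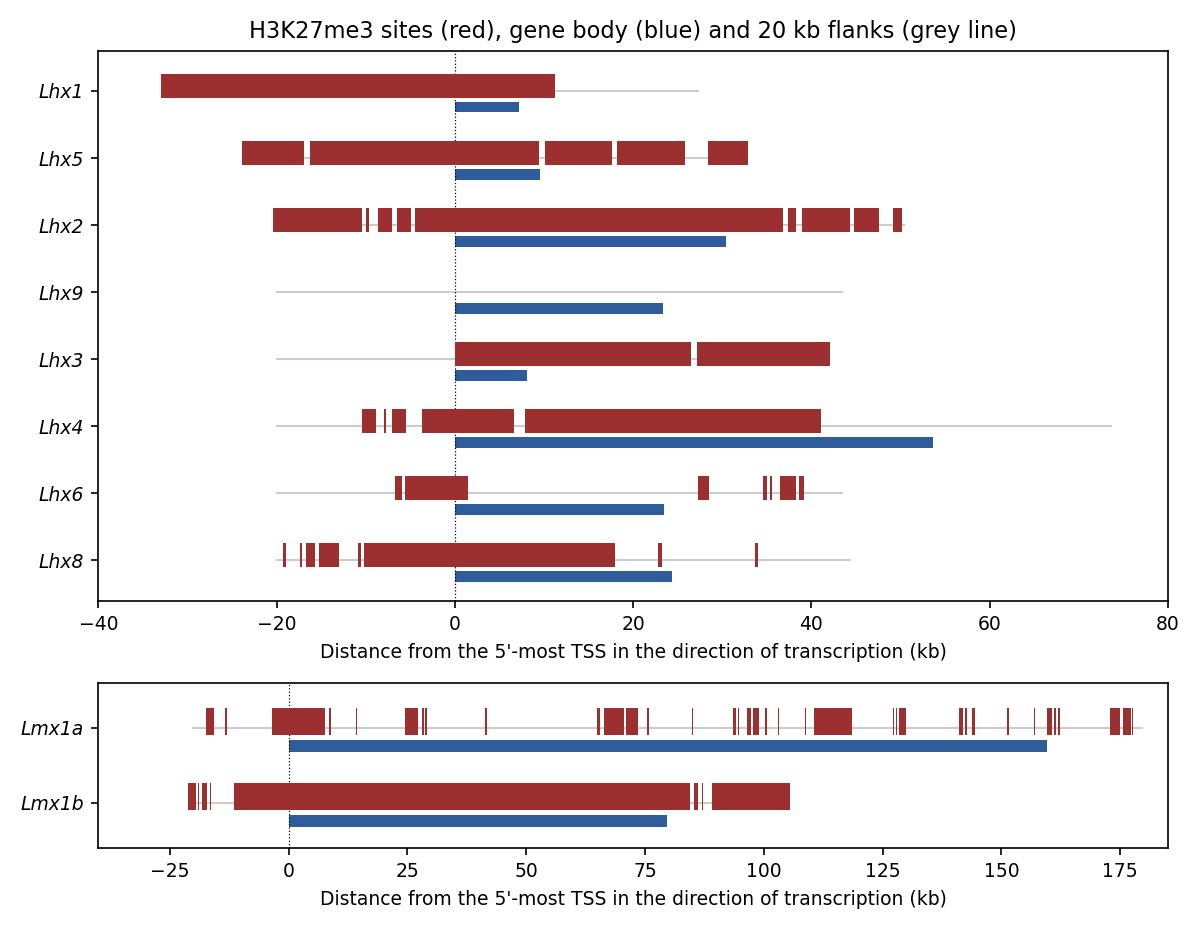
H3K27me3 sites (red blocks) over each gene body (blue) and its 20 kb flanks (grey line), by distance from the 5′-most TSS in the direction of transcription (x axis, kb), with the shorter genes in the upper panel and the Lmx1 genes on a wider scale in the lower panel. One block spans Lhx1, the block of Lhx3 starts at its TSS, Lhx4 lacks sites over its last 12536 bp, Lhx9 has none, and Lmx1a has 37 sites against 10 in Lmx1b.

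Lhx6 and Lhx8 specify neurons that derive from the ventral forebrain, Lhx6 cortical interneurons and Lhx8 cholinergic neurons. In both, a site covered the 5′-most TSS, but it extended differently into the gene. In Lhx6 (chr2:36081953-36105408, minus strand) the site was 7077 bp wide and reached 5564 bp upstream and 1512 bp downstream of the TSS, so that 6.45% of the gene body was covered. The TSSs of 2 transcripts that start inside the gene were uncovered, and the remaining 21943 bp of the body held no site. Of the 7 sites in its window, 5 lay over Morn5, the next gene downstream, whose body was covered by 24.2% and whose TSS was uncovered.

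In Lhx8 (chr3:154306294-154330659, minus strand) the site over the TSS was 28105 bp wide, reached 17918 bp into the gene and covered all 5 TSSs. The body was covered by 75.4%, with an uncovered stretch of 4880 bp at its 3′ part, and the flanks by 72.7% upstream and 2.09% downstream. The covered share was 32.7 percentage points lower in Lhx6 than in Lhx8 over the window and 68.9 percentage points lower in the gene body. In this pair the order by covered share was opposite to the order by CpG pairs of the printed promoters.

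Lmx1a and Lmx1b act together in midbrain dopaminergic neurons. Lmx1a also specifies the roof plate, and Lmx1b the dorsal side of the limb and kidney podocytes. Lmx1b (chr2:33560965-33640511, minus strand) carried the widest site of all 10 genes, 95936 bp at chr2:33555989-33651924, wider than the widest site of 99.8% of protein-coding genes. This site contained the whole gene with its 3 TSSs and extended 11413 bp upstream of the 5′-most one. The first rank of Lmx1b holds for sites as listed. With sites less than 3 kb apart joined, the domain over the TSS was wider in Lhx1 (275017 bp) than in Lmx1b (150708 bp). Lmx1a (chr1:167689237-167848741, plus strand) had the largest number of sites, 37, of which 26 were under 1000 bp and 21 under 500 bp wide. Its widest site of 11137 bp covered both TSSs and ended 7672 bp into the gene.

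The rest of Lmx1a was covered in pieces. Its body was covered by 23.1%, with 20.7% of exonic and 23.2% of intronic bases in sites, and held an uncovered stretch of 23174 bp. Joining sites less than 3 kb apart widened the domain over the TSS of Lmx1a to 12454 bp, whereas that of Lmx1b became 150708 bp wide. Lmx1a was thus lower by 67.5 percentage points over the window and by 76.9 in the gene body. With 159505 bp and 79547 bp Lmx1a and Lmx1b are the longest and the second longest of the 10 genes, and the part of gene length in their difference was not tested.

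Over the 10 windows the 85 sites had a median width of 908 bp, against 676 bp in the whole list, and ranged from 200 to 95936 bp. Sites of at least 10 kb made up 12.9% of them (11 sites), against 2.35% of all sites, and sites under 500 bp made up 41.2% of them (35 sites), against 38.5%. Of these narrow sites 21 lay in the window of Lmx1a. Without Lmx1a, 29.2% of the remaining 48 sites were under 500 bp, 20.8% were at least 10 kb wide and the median width was 1581 bp, so that the narrow sites were mostly those of 1 gene. Of the 85 sites 38 overlapped the body of an Lhx or Lmx1 gene, and 21 lay wholly before a 5′-most TSS.

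**Figure D4:**
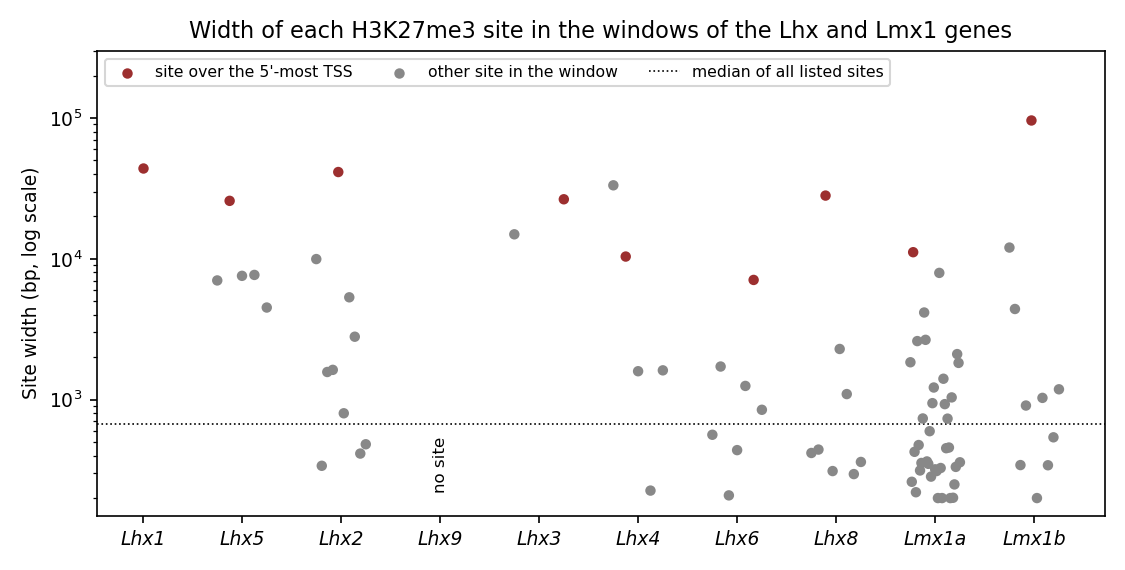
Width of each of the 85 sites (y axis, bp, log scale) by gene (x axis), with the site over the 5′-most TSS in red, other sites in grey and the median of all listed sites (676 bp) as a dotted line. The red points lie between 7077 and 95936 bp, in Lhx4 a wider site lies beside the red one, and most of the 37 points of Lmx1a lie near or below the dotted line.

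Covered bases were richer in CpG pairs than uncovered bases of the same window in all 9 genes with sites, against 60.5% of the 13362 protein-coding genes whose window held both kinds of bases. The GC content was also higher in covered bases in all 9, but this was so in 86.7% of protein-coding genes as well and is near the background. The CpG density was 19.8 against 8.09 CpG pairs per kb in Lhx3, 16.9 against 8.15 in Lhx2 and 17.1 against 9.37 in Lmx1a. The smallest difference was found in Lmx1b, with 18.1 against 14.6. Covered and uncovered bases of a gene also differ in their distance from the TSS, and the part of that distance in the CpG difference was not tested.

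The neighbouring protein-coding genes were covered about as often as protein-coding genes in general. Of the 20 nearest protein-coding neighbours, 1 on each side of a gene, 16 had no covered base in their body, against 69.4% of protein-coding genes. A TSS was covered in 3 of the 20, which is near the background of 21.4%. These 3 were Sdsl next to Lhx5 (3 of 3 TSSs), Rxrg, which encodes a retinoid X receptor, next to Lmx1a (3 of 4) and Slc44a5 next to Lhx8 (1 of 3). The sites over the TSSs of the Lhx and Lmx1 genes overlapped no other protein-coding gene. They did overlap gene records that GENCODE does not class as protein-coding. Of these Gm27199 at Lhx5, Gm13584 and Gm27197 at Lhx2, Gm27196 at Lhx3 and C130021I20Rik at Lmx1b are annotated as antisense RNAs, and the others were Lhx1os at Lhx1, Gm13553 at Lhx3, AI606473 at Lhx8 and Gm38011 at Lmx1b.

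The wider surroundings also differed between the genes. Within 500 kb on both sides of the window, the highest shares were 28.5 to 31.4% of bases covered, around Lhx1, Lhx5, Lhx3 and Lmx1b, and each of these values was higher than that of at least 90.6% of protein-coding genes. Around Lhx2 the share was 8.21%, close to the median of 8.65%, although the window of Lhx2 itself was covered by 91.1%. Lhx4, Lhx8 and Lhx6 had 5.50%, 6.02% and 4.59%, and Lmx1a had 15.3%. Lhx9, the only gene without a site, also had the lowest share around it. The 4 genes with the highest shares were among the 5 with the highest covered share of the window, Lhx2 being the remaining one. Surroundings and windows are not separate, however. When sites less than 3 kb apart were joined, the domain over the TSS was 275017 bp wide at Lhx1, against a window of 47252 bp. It also exceeded the window at Lmx1b (150708 against 119547 bp), Lhx5 (90920 against 49525 bp) and Lhx2 (126199 against 70453 bp). Part of the surroundings of these genes was thus the same joined domain.

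The other genes of the LIM network were described from a list of 12 genes. These were the remaining LIM homeodomain genes Isl1 and Isl2, the LIM-only genes Lmo1 to Lmo4, the cofactor genes Ldb1 and Ldb2, the genes Ssbp2, Ssbp3 and Ssbp4, whose products stabilize LDB proteins, and Rlim, which encodes a ubiquitin ligase for LDB proteins. A TSS was covered in 5 of the 12, against 21.4% of protein-coding genes, and the median covered share of the window was 6.63%, against 1.88%. The 5 genes were the transcription factor genes Isl1 and Isl2 and the LIM-only genes Lmo1, Lmo2 and Lmo3, while none of the 6 cofactor, stabilizer and ligase genes had a covered TSS, nor had Lmo4. With 6 genes and a background of 21.4%, a count of 0 does not set these genes apart.

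Among these genes Lmo2, a factor of blood and vessel development, had the highest covered share with 93.6%, and all of its 8 TSSs were covered. Isl1, a factor of motor neurons, heart and pancreas, had 71.2% and Isl2 44.3%, with all of their TSSs covered. Lmo1 had 25.8% with 1 of 3 TSSs covered, and Lmo3 had 3.45%, although 7 of its 8 TSSs were covered. Lmo4 had no site. Ldb1, the main cofactor, had 3.72%, with the sites outside its gene body, Ldb2 had 0.304%, and Ssbp2, Ssbp3 and Ssbp4 had 0.135%, 1.94% and 9.55%. Rlim, on chromosome X, had 29.8% in 27 sites, of which the widest was 2959 bp, and its only TSS was uncovered.

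Set beside other families of developmental homeobox genes, the Lhx and Lmx1 genes had a similar median covered share. It was 57.5% over the 10 Nkx2 and Nkx6 genes, with a range from 25.7 to 91.2%, and 66.0% over the 7 Pou3f and Pou4f genes, with a range from 15.9 to 93.7%. A TSS was covered in 10 of 10 and in 7 of 7 of these genes, against 21.4% of protein-coding genes, so that Lhx9 was the only one of the 27 genes without a site. The median covered share of the gene body was 87.5% in the Lhx and Lmx1 genes and 100% in both other families, whose genes are shorter in most cases. At least 50% of the window was covered in 6 of 10 Nkx2 and Nkx6 genes and in 6 of 7 Pou3f and Pou4f genes, against 7 of 10 Lhx and Lmx1 genes and 6.47% of protein-coding genes.

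**Figure D5:**
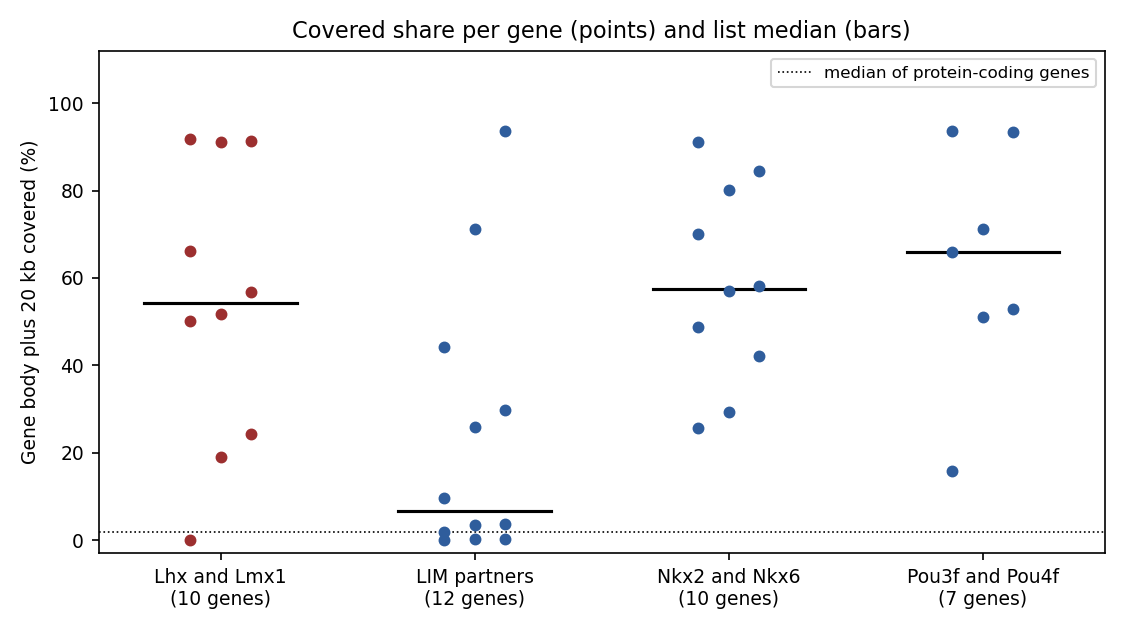
Covered share of the gene body plus 20 kb on both sides (y axis, %) for each gene (points) of 4 lists (x axis), with the list median as a bar and the median of protein-coding genes (1.88%) as a dotted line. The bars stand at 54.3% for the Lhx and Lmx1 genes, 6.63% for the LIM partners, 57.5% for the Nkx2 and Nkx6 genes and 66.0% for the Pou3f and Pou4f genes, and Lhx9 lies at 0.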

How the data were processed

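H3K27me3 ChIP-seq was carried out in 8 libraries, with 4 input libraries, and the groups were taken from the sample titles and records. Reads had been trimmed by the authors (Trim Galore) and aligned to mm10 (GRCm38.p6, GENCODE M25) using BWA, followed by filtering in samtools, merging of replicates in Picard and broad peak calling in MACS, and coverage was equalized to that of the shallowest library. The submitters' processing notes also name deepTools and DESeq2. Versions, cutoffs and the rule that joined peaks over samples are not given in the sources used here. The settings of such a caller decide how narrow a peak can be and which stretches are bridged, and so affect the widths reported.

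The deposited file holds positions only, in bases, with no score, count or signal. No test was therefore run. Protein sequences were not analysed here. There were 0 unused columns of per-sample values. Starts were read as counted from 0, because end minus start was never below 200 bp, and positions are printed counted from 1. Genes, transcripts and TSSs were those of GENCODE M21 on GRCm38, and chromosome Y was not analysed here. A TSS was covered if its base lay in a site. A covered share is the bases inside sites divided by all bases of the gene body or window. Ranks give the share of protein-coding genes with a lower value. Promoters of RefSeq were matched by gene symbol, and all 13 equalled the GRCm38.p6 sequence. No promoter was matched for Lhx5.

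The genes, the paralog pairs and the lists were chosen with earlier results of these data known. Named were all 10 genes, the 12 LIM partners, records overlapped by a site that also overlaps one of the 10 genes, and the nearest protein-coding neighbour on both sides, while the Nkx and Pou lists were described by counts, medians and ranges. Alternatives were flanks of 0, 5 and 50 kb, sites of at least 500 or 1000 bp, joining of sites less than 3 kb apart, other choices of TSS and transcript, and starts counted from 1. The interval arithmetic was tested on simulated data. Python 3.11.15, NumPy 2.4.6 and matplotlib 3.10.9 were used.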

Additional observations from a re-analysis of the deposited data

How the results depend on the processing

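No paired analysis was possible because the list is pooled over all libraries and no result comes from a test. A TSS was covered in 9 of the 10 genes under each of the alternatives run on that count, including 1 chosen after seeing the data, in which only the 5′-most TSS of a gene was used. For the LIM partners the count lay between 4 (5′-most TSS only) and 6 (sites up to 1 kb from the TSS counted), and for protein-coding genes between 18.1% and 26.9% in the same settings. A site was present in 9 windows under all alternatives run on that count except flanks of 50 kb, which took in 10. The median covered share of the window lay between 47.0% (flanks of 50 kb) and 87.5% (no flanks). The number of sites in the windows, 85 as reported, was 38 with no flanks, 45 with flanks of 5 kb, 160 with flanks of 50 kb, 50 with sites of at least 500 bp, 40 with sites of at least 1000 bp and 27 when sites less than 3 kb apart were joined, which follows from the size of the window and the number of sites kept. The order within a pair was turned in 1 of 35 recomputed differences: with no flanks Lhx1 exceeded Lhx5 by 0.420 percentage points. A further 13 of the 35 kept their order but were classed as moved in size. With flanks of 5 kb the covered share was 94.3% in Lhx1 and 96.7% in Lhx5, against 66.2% and 91.4% as reported. Of the recomputed covered shares of single genes 32 of 70 were classed as moved. The width of the widest site moved in 9 of 40 values, all where sites less than 3 kb apart were joined. The difference between Lhx3 and Lhx4, 6.59 percentage points as reported, lay between 0.955 (gene body of transcripts tagged as basic) and 26.9 (flanks of 50 kb). At least 50% of the window was covered in 7 genes as reported, and in 5 with flanks of 50 kb or with sites of at least 500 or 1000 bp, a count computed after seeing the data. The list carries no read depth, so that a weak domain and no domain at Lhx9 cannot be told apart, and a broad site does not show that the mark was present over its whole width in each library.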
